A study of Mus musculus with 17 samples.

Results

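The mitochondrially encoded transcripts were taken as every entry of the mouse table whose symbol starts with mt-, which gave 37 genes of 55453 distinct symbols: 13 protein-coding genes, 2 ribosomal RNA (rRNA) genes and 22 transfer RNA (tRNA) genes. They were compared in bulk cortex from 17 male C57BL/6J mice of 3 Hnrnph2 lines, Hnrnph2 being an X-linked gene for the RNA-binding protein hnRNPH2. KO mice carry a frameshifting indel, and R206W and P209L knockin mice each carry an amino acid substitution seen in patients. Mutant males were hemizygous, and controls were wild-type littermates of the same line. KO and R206W mice and their controls, with 3 mice in each group, were 8 weeks old. P209L mice (3) and P209L Control mice (2 analysed here) were 3 weeks old, so the P209L line and the younger age cannot be told apart, and each mouse was 1 library. Hnrnph2 itself was at 21.3 to 24.4 TPM in KO mice and 80.5, 145 and 140 TPM in KO Control, and it overlapped between mutant and control mice in both knockin lines.

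Mitochondrial DNA is a small circle that is transcribed from both strands into long precursors. The tRNAs lie between most of the mRNAs and rRNAs, and cutting them out releases the separate RNAs, so that genes made from the same precursor can still differ in level through processing, polyadenylation and decay. Its mRNAs encode core subunits of respiratory complexes I, III and IV and of the ATP synthase, and nuclear genes encode all other subunits. The rRNAs of mitochondrial DNA build the mitochondrial ribosome. Cortex depends heavily on this pathway because neurons spend most of their ATP on ion pumping. Stretches of mitochondrial DNA have also been copied into nuclear chromosomes, and such copies can compete for the same reads.

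Values were TPM, transcript abundances scaled to gene length and to a fixed total for each mouse. Levels of different genes can thus be set side by side, whereas the sequencing depth behind them is unknown. TPM also ties the genes of a mouse together, because more of a few abundant RNAs leaves less for all others. Of the 37 genes, 15 were above 0 in at least 1 mouse and passed the filter of a mean of 1 TPM, namely the 13 protein-coding and 2 rRNA genes. The 22 tRNA genes, 59 to 75 bases long, were listed at 0 in all 17 mice, so nothing could be compared in that class. Of the 14 most abundant genes of the whole table, 10 were mitochondrially encoded and the other 4 were copies of mitochondrial genes on chromosome 1.

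Several of these genes could not be read from their own symbol. In GENCODE M21 (build GRCm38), a block on the minus strand of chromosome 1 (chr1:24611535-24616197) holds 7 genes annotated as unprocessed pseudogenes that repeat a stretch of mitochondrial DNA in its original order. The stretch runs from the end of mt-Co1 through mt-Co2, mt-Atp6, mt-Co3, mt-Nd3 and mt-Nd4l into mt-Nd4. The sequences below, from the GENCODE M21 transcripts, show how little separates a gene from its copy where the pair aligns. Capitals mark the only differing base of a pair over the whole aligned length, with positions counted from 1 at the first base of the mitochondrial gene and its base given first, and an identical pair has no capitals.
mt-Co1: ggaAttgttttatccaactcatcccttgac
Gm29216: ggaTttgttttatccaactcatcccttgac
mt-Co2: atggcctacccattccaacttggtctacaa
Gm28661: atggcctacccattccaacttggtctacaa
mt-Nd3: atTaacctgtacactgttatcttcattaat
Gm28438: atCaacctgtacactgttatcttcattaat
The mt-Co1 pair is shown from base 1063 of mt-Co1, where the alignment with Gm29216 begins. It runs for 483 of 1545 bases and has 1 difference, A1066T. The mt-Co2 pair is shown from its first base and is identical over 681 of 684 bases. The mt-Nd3 pair has 1 difference in 345 bases, T3C. No base differed between mt-Atp6 and Gm10925 over 678 bases, mt-Co3 and Gm28437 over 783 bases, mt-Nd4l and Gm10222 over 294 bases, or mt-Nd4 and Gm28439 over the first 876 of 1378 bases.

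The table gave nearly all of the signal of mt-Co2, mt-Atp6 and mt-Co3 to the copies. For mt-Co2, a core subunit of complex IV, the mean over 17 mice was 37.2 TPM, against 33407 TPM for Gm28661. For mt-Atp6, the proton channel subunit of the ATP synthase, it was 66.6 TPM against 33692 TPM for Gm10925, and for mt-Co3, a further complex IV subunit, 31.5 TPM against 32544 TPM for Gm28437. Weighted by length, at least 98.9755% of each of these 3 pairs stood under the copy in every mouse. The mt-Nd4l and mt-Nd4 pairs went the other way although they too are identical: at most 0.245% of mt-Nd4l stood under Gm10222 and at most 0.0909% of mt-Nd4 under Gm28439. In the pair of mt-Co1, the catalytic subunit of complex IV, the copy took 31.7% to 34.0% at 8 weeks and 37.1% to 39.4% at 3 weeks, and the copied stretch is 31.3% of the length of mt-Co1. Gm28438 took 5.14% to 6.54% of the mt-Nd3 pair at 8 weeks and 6.75% to 7.53% at 3 weeks. A value printed under mt-Co2, mt-Atp6 or mt-Co3 alone was therefore the remainder after this division, and below each gene is also given with its copy, the pair's TPM being summed in proportion to length. A nuclear transcript from the block would be counted in that sum, and its part was not tested.

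**Figure D1:**
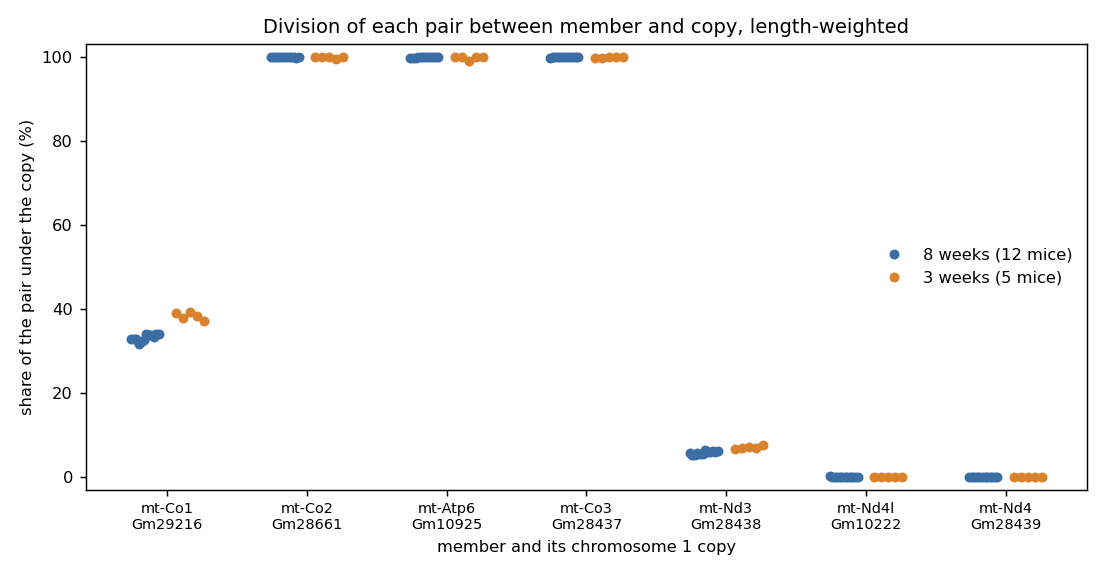
Share of each pair that stood under the chromosome 1 copy, weighted by length (y axis, percent), for the 7 pairs on the x axis, with 1 point for each mouse (blue, 12 mice of 8 weeks; orange, 5 mice of 3 weeks). The mt-Co2, mt-Atp6 and mt-Co3 pairs lie at or above 98.9755%, the mt-Nd4l and mt-Nd4 pairs near 0, and the mt-Co1 pair higher at 3 weeks than at 8 weeks.

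One further gene could not be measured. mt-Atp8, a small ATP synthase subunit whose last 43 bases are also the first bases of mt-Atp6 (chrM:7927-7969), was listed at 0 in 6 mice, at 2120.5 TPM in KO 3 and at no more than 182.5 TPM in the other 10. The 43 shared bases are shown because reads from them belong to both genes.
mt-Atp8 and mt-Atp6: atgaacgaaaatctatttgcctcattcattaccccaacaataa
On chromosome 1, 233 bases without an annotated gene separate Gm28661 from Gm10925, the same number as separates the copied parts of mt-Co2 and mt-Atp6, where mt-Atp8 lies. Copies elsewhere in the table were far below the 4 largest copies on chromosome 1: Gm13340 (97.6% identical to mt-Co1) averaged 470 TPM, Gm13339 (96.7% identical to a part of mt-Nd2) 194 TPM, Gm13341 (95.9% identical to mt-Co2) 66.2 TPM and Gm11407 (92.3% identical to a part of mt-Nd5) 3.13 TPM. mt-Nd1 and both rRNA genes had no transcript of at least 90% identity over 100 bases.

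With copies included, the 4 most abundant mRNAs encoded the 3 complex IV subunits and mt-Atp6. At 8 weeks, the median over 12 mice was 43663 TPM for mt-Co1, 31450 TPM for mt-Atp6, 28753 TPM for mt-Co2 and 28582 TPM for mt-Co3. Complex I subunits, which pass electrons from NADH to ubiquinone, spread widely, from 19985 TPM for mt-Nd4l, 15433 TPM for mt-Nd1, 12226 TPM for mt-Nd4, 10248 TPM for mt-Nd3 and 9106 TPM for mt-Nd2 down to 5753 TPM for mt-Nd5. mt-Cytb, the only complex III subunit encoded in mitochondria, had a median of 16636 TPM. mt-Nd6, the only protein-coding gene on the minus strand, had 326 TPM, and its ratio to mt-Nd5, its neighbour on the other strand, was 0.0419 to 0.0676 at 8 weeks and 0.0497 to 0.0691 at 3 weeks. The rRNAs had lower values than most mRNAs, 7642 TPM for mt-Rnr1 (small ribosomal subunit) and 5904 TPM for mt-Rnr2 (large ribosomal subunit). The labels name a total RNA library kit and do not say whether mitochondrial rRNA was depleted beforehand, so the rRNA values cannot be read as the amount in the tissue.

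KO Control 1 stood apart from the other libraries in the size of this class. The 13 protein-coding genes took 18.0% of TPM in KO Control 1, 11.96% in KO Control 2 and 11.3% in KO Control 3. They took 11.5% to 13.9% in KO mice, 10.8% to 11.9% in R206W Control, 9.54% to 12.1% in R206W, 11.5% to 11.6% in P209L Control and 10.47% to 11.4% in P209L mice. The 2 rRNA genes took 2.14% in KO Control 1, 1.14% to 1.5003% in the other 8-week mice and 2.00% to 2.71% at 3 weeks. With the 7 copies, mitochondrial sequence reached 40.9% of TPM in KO Control 1, against 21.8% to 30.1% in the other 8-week mice and 28.7% to 32.9% at 3 weeks.

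**Figure D2:**
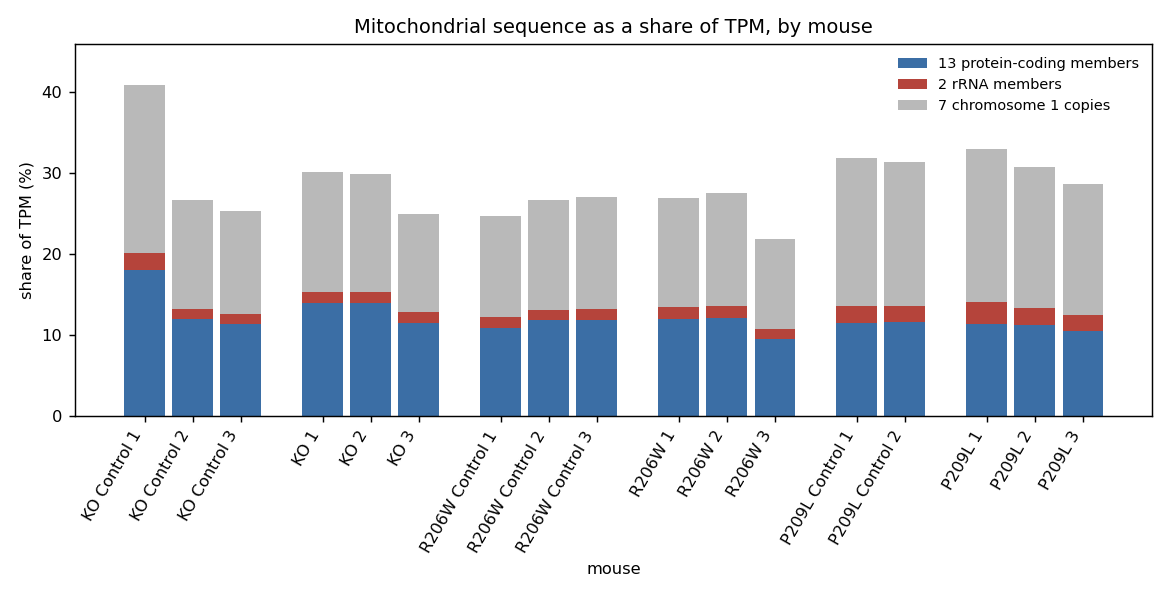
Share of TPM (y axis, percent) taken by the 13 protein-coding genes (blue), the 2 rRNA genes (red) and the 7 chromosome 1 copies (grey) in each of the 17 mice on the x axis. KO Control 1 reaches 40.9% and the other bars lie between 21.8% and 32.9%, and the red segment is 2.00% to 2.71% in the 5 mice of the P209L line, 2.14% in KO Control 1 and at most 1.5003% in the other 8-week mice.

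The excess in KO Control 1 ran through most genes of the class. With copies, 14 of 15 genes were higher there than in any other 8-week mouse, mt-Atp8 being the exception, and 10 were higher than in any of the other 16 mice, against 1.89% of all genes tested. That share is not a like background, because a larger mitochondrial share lowers nuclear genes and the mitochondrial genes vary together. The mouse was singled out by the size of this class, so these counts only describe it. Its mt-Nd1 level, for example, was 24254 TPM, while the other 8-week mice ranged from 12673 to 19401 TPM. As a percentage of the summed mitochondrial mRNA of the same mouse, however, 9 of the 15 genes in KO Control 1 lay within the range of the other 8-week mice. The 6 outside it were mt-Nd2, mt-Nd4, mt-Nd5 and mt-Cytb below and mt-Co1 and mt-Co3 above. mt-Nd5 made up 2.20% in KO Control 1 and 2.52% to 2.75% in the other 8-week mice. Summed levels of 7 of 12 cell type marker lists were lowest in KO Control 1 among the 8-week mice, namely those of excitatory, inhibitory and striatal neurons, astrocytes, oligodendrocytes, microglia and endothelium, and so were all 4 lists of nuclear genes described below. Excitatory neuron markers, for example, summed to 2406 TPM against 3052 to 4430 TPM in the others. In the other direction, the blood (900 TPM), leptomeningeal (66.1 TPM) and cerebellar (9.01 TPM) sums of KO Control 1 were the highest among KO Control mice. The share of all genes that were lowest in this mouse is not given here, so the counts of lists have no background. All sequence outside the mitochondrial genes and their copies summed to 591994 TPM in KO Control 1. In the other 8-week mice it ranged from 699456 TPM in KO 1 to 782417 TPM in R206W 3. Because TPM has a fixed total, a larger mitochondrial share lowers every nuclear sum. Low sums in this mouse were therefore not read as a measure of cells. Whether these lists stayed lowest without that effect was not tested, nor was the part of these markers in the excess. In bulk tissue, fewer cells of a type and less RNA per cell cannot be told apart.

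No difference was detected between KO mice and KO Control in the mitochondrially encoded genes that could be tested. Of the 15 genes tested in KO mice against KO Control, 0 passed an adjusted p of 0.05 in limma, as did 0.00615% of all genes. At an unadjusted p under 0.05, 1 passed (background 4.08%), which was mt-Co3 under its own symbol (30.9, 5.18 and 1.55 TPM in KO mice, 190, 18.0 and 21.2 TPM in KO Control). Groups did not overlap for 2 of 15 (background 6.25%): mt-Atp8 was 182, 139 and 2120.5 TPM in KO mice and 94.3, 53.9 and 39.3 TPM in KO Control (log2 difference 2.67 ± 1.72, adjusted p = 0.999), and mt-Atp6 under its own symbol was lower in KO mice. With copies, 4 genes lay above and 11 below 0, and the 14 genes without mt-Atp8 differed by -0.16 to 0.03 on the log2 scale with SEs of 0.13 to 0.22. mt-Nd1 was 19401, 19203 and 15292 TPM in KO mice and 24254, 15574 and 14658 TPM in KO Control (log2 difference 0.01 ± 0.16 SE, adjusted p = 1). mt-Nd4l, an inner membrane subunit of complex I, was 24156, 24163 and 19812 TPM in KO mice and 30943, 20787 and 19485 TPM in KO Control (-0.04 ± 0.15, adjusted p = 0.999). In both genes the groups overlapped and KO Control 1 was the highest mouse. mt-Rnr1 was 8049, 7631 and 7652 TPM against 11960, 7122 and 6986 TPM, and its difference was -0.11 ± 0.17 (adjusted p = 0.999).

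The direction of the KO differences depended on single mice. Without KO 3, with copies, 9 of 15 genes were above 0. Without KO Control 1, with copies, all 15 genes were above 0, the 14 without mt-Atp8 differed by 0.03 to 0.25, and 0 passed the adjusted threshold (smallest adjusted p = 0.512). The median of the 13 protein-coding genes under their own symbols moved from -0.03 to 0.18, while the median over all genes moved from 0.06 to -0.06. mt-Nd1, for instance, went from 0.01 to 0.24 ± 0.13 (adjusted p = 0.512).

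R206W mice did not differ detectably from R206W Control in any of the 15 genes (0 called, background 0.0369%; 0 with an unadjusted p under 0.05, background 2.19%; 0 without overlap, background 16.2%). mt-Nd1 was 16375, 16756 and 12673 TPM in R206W mice and 13803, 14878 and 15259 TPM in R206W Control (0.05 ± 0.16, adjusted p = 1). mt-Cytb was 17156, 17293 and 13718 TPM against 15846, 16561 and 16712 TPM (-0.04 ± 0.15, adjusted p = 1). R206W 3 was the lowest 8-week mouse for both, and the groups overlapped. With copies, the 14 genes without mt-Atp8 ranged from -0.24 for mt-Nd6 to 0.05 for mt-Nd1. The KO effect against the R206W effect was tested for each gene directly and called 0 of 15 (background 0.0307%; 0 at an unadjusted p under 0.05, background 2.29%). Signs in these comparisons depended on single mice. With copies, 7 of 15 differences between the KO and R206W effects were above 0, against 15 without KO Control 1, 12 without KO 3, 2 without R206W 3 and 1 without KO Control 3. For R206W mice, 5 of 15 were above 0, against 14 without R206W 3 and 0 without R206W 1. In each of these fits 0 passed the adjusted threshold.

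P209L mice also showed 0 of 15 called against P209L Control (background 0.0984%). Only mt-Co3 passed an unadjusted p under 0.05 (background 7.46%). Under its own symbol, mt-Co3 was 2.19, 2.96 and 7.42 TPM in P209L mice and 119 and 96.7 TPM in P209L Control, a log2 difference of -4.52 ± 1.27 (adjusted p = 0.302). At least 99.7% of this pair stood under Gm28437 in each of the 5 mice, and the difference was -0.04 ± 0.20 (adjusted p = 0.994) once Gm28437 was added. Groups did not overlap for 5 of the 15 genes, all lower in P209L mice, while 24.9% of all genes did not overlap and 10.7% did so in the lower direction. Apart from mt-Co3 these were mt-Nd1, mt-Nd4, mt-Nd5 and mt-Cytb, with log2 differences of -0.05, -0.18, -0.14 and -0.09 and adjusted p of at least 0.9. mt-Rnr1, at 15424, 12298 and 11639 TPM in P209L mice and 11992 and 11313 TPM in P209L Control, differed by 0.16 ± 0.19 (adjusted p = 0.936), and P209L 1 was its highest mouse of all 17.

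**Figure D3:**
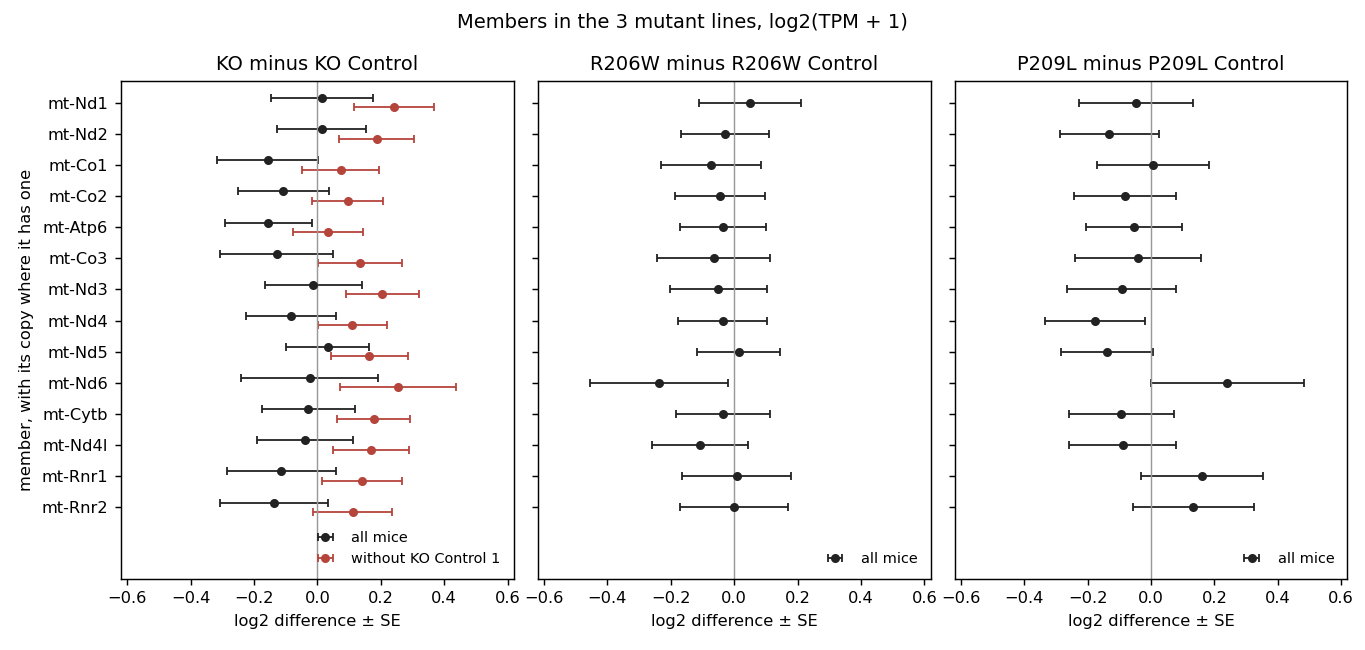
Log2 difference between mutant mice and their own controls with its SE (x axis) for 14 mitochondrially encoded genes on the y axis, each with its chromosome 1 copy where it has one, in KO, R206W and P209L mice (black). Leaving out KO Control 1 (red) moves all 14 KO values to the right of 0, and no value in any panel passed the adjusted threshold.

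The controls of both 8-week lines, which share the wild-type genotype and age, were compared to see what the lines themselves contribute. All 15 genes were lower in R206W Control than in KO Control, and 0 passed the adjusted threshold (background 0). At an unadjusted p under 0.05, 3 passed (background 3.12%): mt-Atp8, mt-Atp6 and mt-Co3, each under its own symbol. The median of the 13 protein-coding genes was -0.25, against 0.13 over all genes, and without KO Control 1 it was -0.04.

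Most of the spread between mice of the same group was shared by the mitochondrial mRNAs. The SDs given next include the KO Control mouse that stood apart in the size of this class, and were not calculated without that mouse. How far the shared spread holds among the other mice was thus not tested. Over 12 mRNAs with copies (mt-Atp8 left out), the SD of the log2 level within groups was 0.161 to 0.299, with a median of 0.195. Expressed as a percentage of the summed mitochondrial mRNA of the same mouse, the SD fell to a median of 0.0338, with a range of 0.0194 for mt-Co1 to 0.185 for mt-Nd6. This quantity, called the relative level below, is a ratio within a mouse and shows unequal change between mitochondrial RNAs, not which of them changed. A fit on it was chosen after the values were seen. Dividing by this sum removes spread that the mitochondrial genes share and brings that spread into all other genes. Shares of all genes on this scale are thus not a like background for the mitochondrial genes.

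At 3 weeks the makeup of the mitochondrial RNA differed from that at 8 weeks. The summed mRNA with copies overlapped between ages, at 231389 to 259279 TPM at 3 weeks and 180932 to 338772 TPM at 8 weeks. Relative levels of the 5 mice of 3 weeks lay above all 12 mice of 8 weeks for mt-Co2, mt-Co3, mt-Nd3, mt-Rnr1 and mt-Rnr2. They lay below all of them for mt-Nd1, mt-Nd2, mt-Nd4, mt-Nd4l, mt-Nd5 and mt-Cytb, and overlapped for mt-Co1, mt-Atp6, mt-Atp8 and mt-Nd6. Of all genes tested, 2.31% lay above and 2.78% below on this scale, which is not a like background. On the level scale under their own symbols, 2 of 15 genes did not overlap (mt-Nd4l and mt-Nd5, both lower), against 16.7% of all genes.

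**Figure D4:**
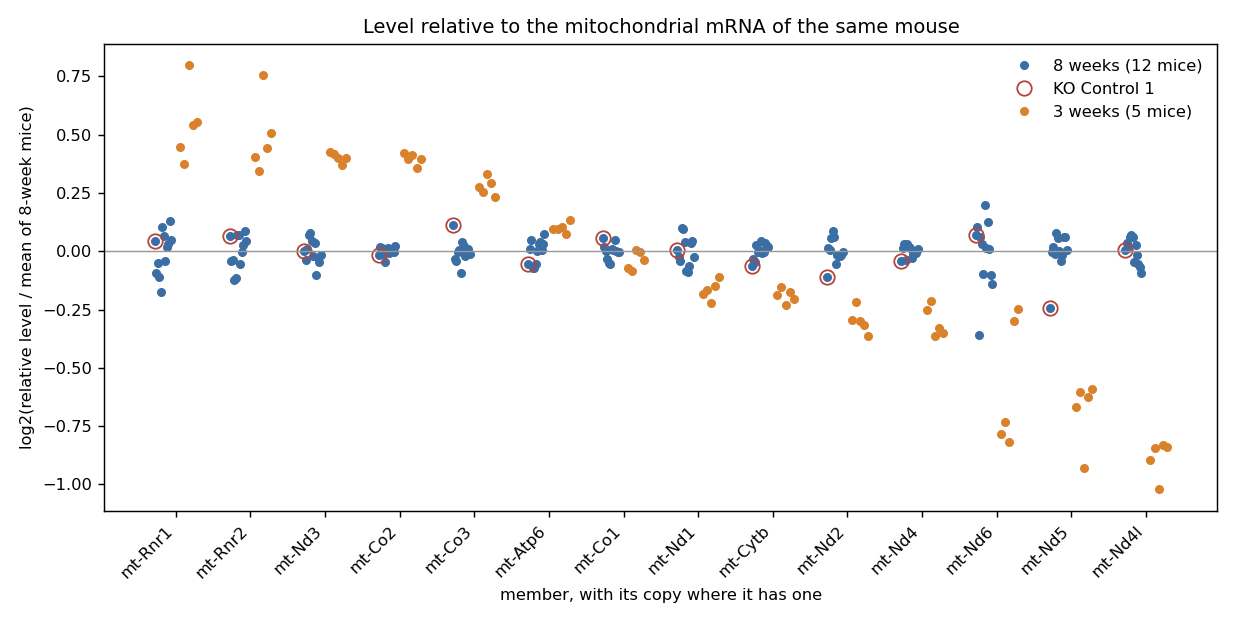
Level of 14 genes (x axis, each with its copy where it has one) relative to the summed mitochondrial mRNA of the same mouse, as log2 of the ratio to the mean of the 8-week mice (y axis), with 1 point for each mouse (blue, 12 mice of 8 weeks; orange, 5 mice of 3 weeks; red ring, KO Control 1). The ringed mouse sits among the blue points for 8 of these genes, and the orange points are highest for mt-Rnr1 and lowest for mt-Nd4l.

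mt-Nd4l had the smallest adjusted p among the called genes on the level scale and was lower at 3 weeks. Its level was 12621 and 12972 TPM in P209L Control, 11651, 12646 and 11811 TPM in P209L mice, and 15460 to 30943 TPM, with a median of 19985 TPM, in the 12 mice of 8 weeks. Every 3-week mouse was thus below every 8-week mouse. Against the mean of both 8-week control groups, P209L Control was lower by -0.74 ± 0.15 (adjusted p = 0.00189), and 29 of 30 alternative settings also called the gene. Relative to mitochondrial mRNA, it made up 4.49% to 5.13% at 3 weeks and 8.54% to 9.58% at 8 weeks (log2 difference between control groups -0.87 ± 0.05, adjusted p = 1.14e-08). mt-Nd4l and mt-Nd4 are carried by the same mRNA in mammals and share 7 bases in the annotation. Their ratio was nonetheless 1.55 to 1.78 at 8 weeks and 1.05 to 1.19 at 3 weeks, without overlap.

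mt-Nd3, a complex I subunit encoded just before mt-Nd4l, moved the other way. It was 15132 and 14908 TPM in P209L Control, 14922, 13953 and 13262 TPM in P209L mice and 7887 to 14990 TPM at 8 weeks, where KO Control 1 was the highest and the next mouse had 11813 TPM. P209L Control was higher by 0.56 ± 0.15 (adjusted p = 0.0107), and by 0.44 ± 0.04 on the relative scale (adjusted p = 2.6e-05). The ratio of mt-Nd3 to mt-Nd4 was 1.24 to 1.35 at 3 weeks and 0.758 to 0.871 at 8 weeks. mt-Nd3 and mt-Nd4l, at 348 and 297 bases, are the shortest protein-coding genes of the class after mt-Atp8. They differed in opposite directions, and the part of gene length in these differences was not tested.

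mt-Co2 was higher at 3 weeks once its copy was counted. With Gm28661 it was 44198 and 43090.5 TPM in P209L Control, 44257, 40552 and 39012 TPM in P209L mice, and 23556 to 32336 TPM in the 8-week mice other than KO Control 1, which had 42967 TPM. The control groups differed by 0.54 ± 0.14 (adjusted p = 0.00925), and on the relative scale by 0.41 ± 0.03 (adjusted p = 3.01e-07), from 12.4% to 13.02% at 8 weeks to 16.4% to 17.2% at 3 weeks. mt-Nd5, a large proton-pumping subunit of complex I, was lower: 4196 and 4360 TPM in P209L Control, 3530, 4155 and 3986 TPM in P209L mice and 4716 to 7437 TPM at 8 weeks (-0.46 ± 0.13, adjusted p = 0.0135; relative -0.59 ± 0.09, adjusted p = 9e-04). Its ratio to mt-Nd4 was 0.320 to 0.401 at 3 weeks and 0.412 to 0.497 at 8 weeks, the lowest 8-week value being that of KO Control 1.

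Both rRNAs were higher at 3 weeks. mt-Rnr1 was 11992 and 11313 TPM in P209L Control, 11639 to 15424 TPM in P209L mice, and 6400 to 8529 TPM in the 8-week mice other than KO Control 1, which had 11960 TPM. P209L Control was higher by 0.55 ± 0.17 for mt-Rnr1 (adjusted p = 0.0209) and by 0.51 ± 0.17 for mt-Rnr2 (adjusted p = 0.0299). Summed rRNA was 0.0783 to 0.105 of summed mRNA at 3 weeks and 0.0549 to 0.0659 at 8 weeks, KO Control 1 being inside the latter range at 0.0633. The ratio of mt-Rnr1 to mt-Rnr2, which come from the same precursor, was 1.31 to 1.37 at 3 weeks and 1.23 to 1.32 at 8 weeks, and the ranges overlapped.

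**Figure D5:**
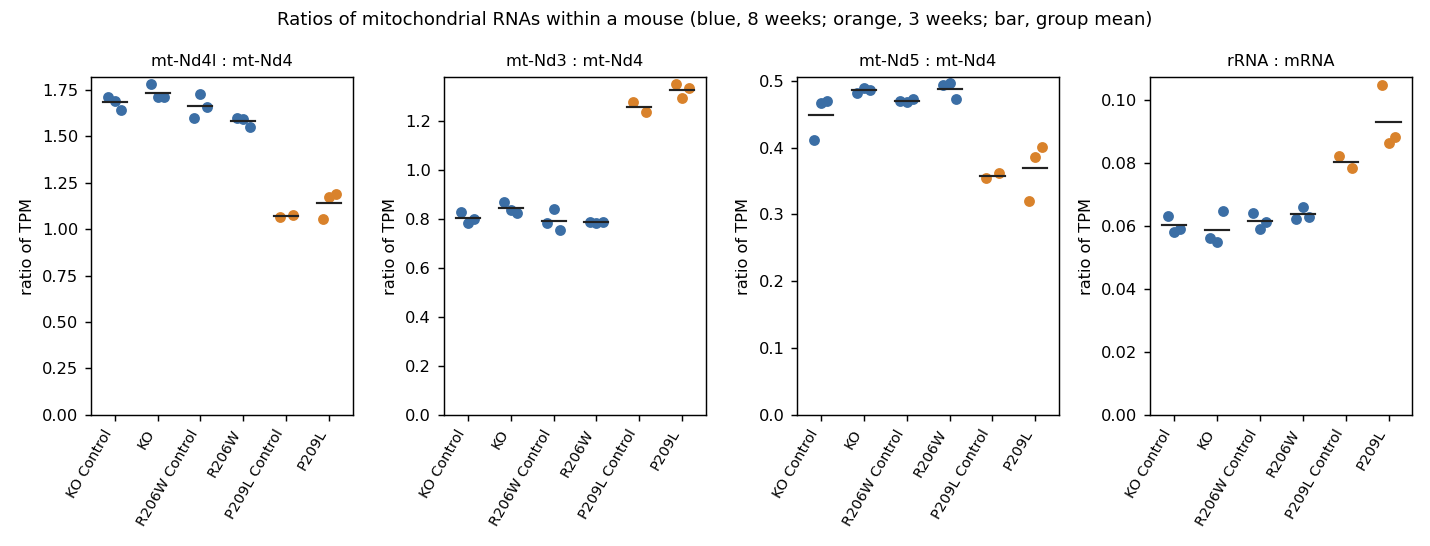
Ratios of TPM (y axes, from 0) of mt-Nd4l, mt-Nd3 and mt-Nd5 to mt-Nd4 and of summed rRNA to summed mRNA with copies, with 1 point for each mouse and a bar for the mean of each of the 6 groups on the x axis (blue, 8 weeks; orange, 3 weeks). The orange and blue points do not overlap in any panel, and the rRNA ratio is 0.0862 to 0.105 in P209L mice and 0.0783 and 0.0821 in P209L Control, without overlap.

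In all, the comparison of P209L Control with the 8-week controls called 7 of 15 genes, 4 higher and 3 lower, while 36.1% of all genes were called, 11.3% higher and 24.8% lower. The remaining calls were mt-Nd6, lower by -0.65 ± 0.22 (adjusted p = 0.0294), and mt-Co3 as a remainder, which was no longer called with its copy (0.38 ± 0.18, adjusted p = 0.104). With copies, 7 genes were again called, mt-Co2 in place of mt-Co3. Relative to mitochondrial mRNA, 13 of 15 were called, 5 higher and 8 lower, and mt-Atp6 and mt-Atp8 were not. Of all genes, 12.1% were called on that scale, which is not a like background for the reason given above. mt-Co2, mt-Nd3, mt-Nd4l and mt-Nd5 were called in all 12 variations of that fit, and mt-Nd1 in 2. mt-Nd1, mt-Cytb and mt-Co1 were lower on the relative scale (-0.12, -0.15 and -0.10) but above 0 when the reference was the 5 mRNAs without a chromosome 1 copy (0.08, 0.05 and 0.10). With that reference mt-Nd2 was at -0.018 and mt-Nd4 at -0.022, and neither was called (adjusted p = 0.853 and 0.768 in limma). Lower relative levels of these genes thus depended on the reference, of which mt-Nd1, mt-Nd2 and mt-Cytb are themselves a part. These comparisons rest on 2 P209L Control mice: without either of them, 1 of 15 genes was called on the level scale, mt-Nd4l, and 4 on the relative scale.

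Other cell types also differed in that comparison. All 5 blood markers were called higher in P209L Control (summed level 2572 to 4884 TPM, against 696 to 1252 TPM in the 8-week controls). So were 4 of 6 oligodendrocyte markers (3964 to 5928 TPM against 2570 to 3491 TPM), beside 11.3% of all genes. Of the excitatory neuron markers, 4 of 6 were called lower (2588 to 2843 TPM against 2406 to 4193 TPM), beside 24.8% of all genes. Also called lower were 3 of 5 microglia, 2 of 5 astrocyte, 1 of 4 endothelial and 1 of 6 inhibitory neuron markers. Choroid plexus markers summed to 1766 TPM in 1 P209L Control mouse and 9.22 TPM in the other, and those of skeletal muscle to 84.2 to 93.9 TPM against 28.8 to 43.4 TPM. Their part in the differences of the mitochondrial genes was not tested. In P209L mice the blood sum was 1905 to 2837 TPM, above the 560 to 1323 TPM of all 8-week mice, and the excitatory sum was 1952 to 2715 TPM, below all 8-week mice but KO Control 1. The other sums in P209L mice were 2401 to 3460 TPM for oligodendrocytes, 4.36 to 14.2 TPM for choroid plexus and 33.7 to 49.1 TPM for skeletal muscle. The ratios of mt-Nd4l, mt-Nd3 and mt-Nd5 to mt-Nd4 and of rRNA to mRNA were outside the 8-week range in these 3 mice too. What part any of these cell types had in the ratios was not tested.

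On the relative scale, 0 of 15 genes were called in KO, R206W or P209L mice (backgrounds 0.0123%, 0.00615% and 0.0246%). At an unadjusted p under 0.05 in limma, 3, 1 and 4 passed (backgrounds 1.46%, 0.873% and 2.76%). Groups did not overlap for 8, 5 and 6 of 15 (backgrounds 2.82%, 5.74% and 23.6%), and since the mRNAs share 1 total, their relative levels are not independent of each other. As stated above, backgrounds on this scale are not like ones for these genes, so the counts cannot be judged against them. mt-Nd1 was 7.64%, 7.62% and 7.34% of mitochondrial mRNA in KO mice and 7.16%, 7.01% and 6.93% in KO Control, a difference of 0.10 ± 0.04 (adjusted p = 1, unadjusted p = 0.0205 in limma). It was 7.32%, 7.36% and 7.004% in R206W mice and 6.73%, 6.70% and 6.83% in R206W Control, again 0.10 ± 0.04 (adjusted p = 1, unadjusted p = 0.0226 in limma). The groups did not overlap in either line, whereas P209L mice (6.12% to 6.62%) overlapped P209L Control (6.28% and 6.37%). However, the wild-type controls of the 8-week lines did not overlap for mt-Nd1 either. R206W Control was lower than KO Control by -0.06 ± 0.04 (adjusted p = 0.449 in limma), and R206W mice overlapped KO Control. Between these control groups, 3 of 15 genes did not overlap on this scale. The size of the mt-Nd1 difference depended on the fit. Over 10 variations of reference, model or mice, it ranged from 0.01 to 0.12 in KO mice and from 0.05 to 0.12 in R206W mice. That of mt-Co1 in KO mice ranged from -0.16 to -0.06. In KO mice mt-Co1 made up 19.0%, 18.8% and 18.7%, below the 20.2%, 19.7% and 19.5% of KO Control (-0.07 ± 0.02, adjusted p = 1). In P209L mice mt-Co1 differed in the opposite direction, at 19.5%, 19.4% and 18.97% against 18.5% and 18.3% in P209L Control (0.07 ± 0.03, adjusted p = 1, unadjusted p = 0.0235 in limma). There mt-Rnr1 (0.22 ± 0.09), mt-Rnr2 (0.19 ± 0.09) and mt-Nd4 (-0.12 ± 0.04) also had groups without overlap, with unadjusted p of 0.0199, 0.0371 and 0.0181 in limma and an adjusted p of 1.

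Nuclear genes that make or use mitochondrial RNA were read from lists. Among 47 genes for mitochondrial transcription, RNA processing and DNA maintenance, 0 passed the adjusted threshold of limma in KO, R206W or P209L mice, and 1, 2 and 0 had an unadjusted p under 0.05. For this and the later lists, the shares of all genes in these lines were 4.08%, 2.19% and 7.46% at that unadjusted threshold. At the adjusted threshold they were 0.00615%, 0.0369% and 0.0984%. The genes named next had an adjusted p of at least 0.725. The smallest unadjusted p in KO mice were those of 1110008L16Rik (Prorp, the nuclease of the tRNA-cutting enzyme; 0.29 ± 0.13) and Mterf1b (0.28 ± 0.14). In R206W mice they were those of Pnpt1, an RNA-degrading phosphorylase (-0.34 ± 0.11), and Mterf3, a repressor of mitochondrial transcription (-0.21 ± 0.10). Twnk, the mitochondrial DNA helicase (-0.32 ± 0.17), and Mto1, a tRNA-modifying enzyme (-0.31 ± 0.17), had the smallest p in P209L mice. Among 7 biogenesis regulators 0 were called in the 3 lines (0 at an unadjusted p under 0.05), and the genes with the smallest p were Nrf1 (0.13 ± 0.13) and Ppargc1b (0.17 ± 0.20) in KO mice, Gabpa (-0.10 ± 0.11) and Pprc1 (0.15 ± 0.23) in R206W mice and Tfam (0.30 ± 0.17) and Ppargc1b (0.29 ± 0.22) in P209L mice. Of 20 nuclear partners in complexes I, III, IV and V, 0 were called (1, 0 and 0 at an unadjusted p under 0.05), with Ndufs7 (0.28 ± 0.13) and Cox5b (0.19 ± 0.11) first in KO mice, Ndufs8 (-0.10 ± 0.11) and Cyc1 (0.08 ± 0.11) in R206W mice and Atp5c1 (0.24 ± 0.13) and Ndufv2 (0.28 ± 0.18) in P209L mice.

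Between P209L Control and the 8-week controls, members of the same lists were called at 9 of 47, 3 of 7, 6 of 20 and 2 of 6, beside 36.1% of all genes, so these counts do not set the lists apart. Of the 47 machinery genes 9 were called, 6 higher and 3 lower. The smallest p belonged to Trmu, which thiolates mitochondrial tRNAs (31.5 against 18.3 TPM; 0.78 ± 0.16, adjusted p = 0.0022), Fastk (0.43 ± 0.11, adjusted p = 0.00616) and 1110008L16Rik (0.49 ± 0.13, adjusted p = 0.0094). All 3 biogenesis regulators called of 7 were lower: Ppargc1b (1.88 against 6.05 TPM; -1.28 ± 0.20, adjusted p = 0.000253), Gabpa (-0.66 ± 0.11, adjusted p = 0.000442) and Ppargc1a (-0.70 ± 0.15, adjusted p = 0.00275). The 6 nuclear partners called of 20 were all higher, and the first 3 by p were the complex IV subunits Cox5b (624 against 405 TPM; 0.63 ± 0.11, adjusted p = 0.000712), Cox7c (0.79 ± 0.14, adjusted p = 0.000728) and Cox4i1 (0.37 ± 0.08, adjusted p = 0.0022). A list of 6 nuclear-retained long noncoding RNAs had 2 called, both higher (Meg3, 0.60 ± 0.16, adjusted p = 0.00861, and Miat, 0.56 ± 0.17, adjusted p = 0.0214). The 6 ranged from -0.30 to 0.60, and whether they measure the share of nuclear RNA was not tested. In the 3 lines 0 were called (0, 1 and 0 at an unadjusted p under 0.05). The smallest p there were those of Meg3 (0.33 ± 0.16) and Miat (0.35 ± 0.17) in KO mice, Malat1 (-0.64 ± 0.28) and Neat1 (-0.25 ± 0.16) in R206W mice and Rian (0.14 ± 0.10) and Neat1 (0.16 ± 0.18) in P209L mice.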

How the data were processed

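The authors deposited a table of TPM by gene symbol with 1 column for each of 17 mice. The submitters' notes name Trim Galore, STAR 2.7.1a, GATK 4.0.4.0, RSEM and build mm10, and their settings are not given in the sources used here. Such TPM hold no depth, so only the spread between mice gives precision. Repeated symbols were summed. limma 3.58.1 in R 4.3.3 was fitted to log2(TPM + 1) with a mean for each of 6 groups (eBayes, trend=TRUE, two-sided) over the 16265 genes whose TPM averaged 1 or more, with Benjamini-Hochberg adjustment and a threshold of 0.05, and was tested on simulated data. Fold changes of low genes are understated on this scale. Similar transcripts were found with BLASTN 2.17.0 in GENCODE M21, which held 98.3% of the symbols and may not be the authors' annotation. All mRNA and rRNA members and 4 copies were named, and from each list the 3 called genes with the smallest p for a comparison, or the 2 with the smallest p for a line without a call. Members and lists were chosen with earlier results of these data known, and sums with copies and relative levels after the values were seen.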

Additional observations from a re-analysis of the deposited data

How the results depend on the processing

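In KO, R206W and P209L mice, in the KO effect against the R206W effect and in the comparison of the 8-week controls, alternatives (pseudocount, filter, scaling, quantile normalization, own groups, robust fit, sample weights, each mouse left out, sums with copies) gave 1 call among 1575 gene values: with sample weights R206W mice had 1 call, mt-Co2 as a remainder. Calls of members stayed at 0 with each mouse left out in turn.

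The median of the 13 protein-coding genes moved more without KO Control 1 than without any other mouse in the 3 comparisons given next. In KO mice it was 0.2679 with sample weights and -0.1654 to 0.1781 with mice left out; for the KO against the R206W effect it was 0.2594 and -0.1168 to 0.1912. Between the 8-week controls it was -0.06466 with quantile normalization, -0.02205 with sample weights, -0.001704 relative to mitochondrial mRNA, and -0.3718 to -0.03821 with mice left out.

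For P209L Control against the 8-week controls, 7 members were called. This became 0 without a filter, 4 with median-of-ratios size factors, 3 with a constant total without mitochondrial sequence (3 also with copies), 1 with own groups only, 13 relative to mitochondrial mRNA, and 1 to 7 with mice left out. The 13 calls on the relative scale became 4 with own groups only and 4 to 13 with mice left out. That scale moved the median over all genes in this comparison from -0.121 to -0.238. mt-Nd1 turned to -0.1235 on it, and mt-Cytb turned to 0.2153 with quantile normalization; the cause was not tested. Of 1905 gene values, 1841 kept their call or lack of one, 52 lost a call, all in this comparison, and 10 gained one.

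With the 4 large copies the share of TPM of the protein-coding class was 29.33% in KO Control, 26.87% in KO, 24.75% in R206W Control, 24.0% in R206W, 29.42% in P209L Control and 28.4% in P209L mice. Replicate numbers did not pair the mice: deviations of same-numbered mice correlated at -0.113 to 0.331. A replicate block left 0 members called in each line and 6 for P209L Control against the 8-week controls. Unknown depth limits what can be said of values near 0.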
